A study of Mus musculus with 6 samples.

Results

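The interferon regulatory factors are a family of transcription factors that share an amino-terminal DNA-binding domain and regulate interferon genes, interferon-stimulated genes and the development of immune cells. The 8 members described here are Irf1, Irf2, Irf3, Irf4, Irf5, Irf7, Irf8 and Irf9. They were taken by name, with earlier results of these data known, so their shared direction is no independent evidence. All 8 had a row among the 21955 Ensembl gene identifiers of the count tables.

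The RNA came from neutrophils taken from the dura mater, the outermost of the meninges, in mice of genotype WT that had met a social threat, and was selected for poly-A tails. There were 3 libraries labelled female and 3 labelled male, and libraries from unexposed mice were not analysed here. The comparison asks how the state of these neutrophils differs between the sexes after exposure. The labels give no age, strain or number of animals per library and do not say how the neutrophils were isolated, so p-values measure the spread between libraries, which may be technical.

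Total counts per library ran from 17098026 to 20778410. The 13 neutrophil marker genes with a row were abundant, led by S100a9, a calcium-binding protein of neutrophils, with 14410 to 21810 CPM (counts scaled to an equal library total after TMM normalization). Cxcr2 and Clec4d are not analysed here. The 4 Y-linked genes Ddx3y, Eif2s3y, Kdm5d and Uty summed to between 312 and 328 CPM in the libraries labelled female and between 307 and 318 CPM in libraries labelled male. These values go against the label female, so the groups are called by their labels, and whether a direction below belongs to the sex of the mice cannot be told. Transcripts encoded in the mitochondrion took 7.43 ± 1.04% of counts in female-labelled libraries, against 11.99 ± 1.23% in male-labelled ones (SD, n = 3 each), a difference with p = 0.1 in an exact two-sided permutation test, which cannot go lower with 3 libraries a group. With these transcripts left out, the same 5 of 8 members were called as with them, and the part of this share in other differences was not tested.

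In an infected or stimulated cell, pattern receptors activate the kinases TBK1 and IKK-epsilon, which phosphorylate IRF3 and IRF7 so that they enter the nucleus and switch on type I interferon genes. Secreted interferon then acts through its receptor and the kinases JAK1 and TYK2 on STAT proteins. Among these STAT2 binds IRF9 within ISGF3, the factor that drives most interferon-stimulated genes, Irf7 among them. IRF1 activates and IRF2 largely restrains genes with interferon response elements, IRF5 serves Toll-like receptor signals and cytokine genes, and IRF8 and IRF4 guide myeloid and lymphoid development, where IRF8 favours monocytes and dendritic cells over neutrophils.

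Promoter windows are shown first because members of the family regulate one another through such sequences. Each window runs from 250 bases before to 50 bases after a RefSeq transcription start on GRCm38.p6, a build other than the GRCm39 used for the counts, and all 8 members matched, with 11 windows. Capitals mark matches to the core of the interferon-stimulated response element bound by IRFs and ISGF3, which is GAAA and a second GAAA with a pair of bases of any kind between them, and to TTCNNNGAA, the core of the gamma-activated site bound by STAT dimers. Both strands were searched. The windows of Irf7 and Irf4 belong to the members with the largest changes, and those of Irf8, Irf1 and Irf2 are the ones with a match.
Irf7: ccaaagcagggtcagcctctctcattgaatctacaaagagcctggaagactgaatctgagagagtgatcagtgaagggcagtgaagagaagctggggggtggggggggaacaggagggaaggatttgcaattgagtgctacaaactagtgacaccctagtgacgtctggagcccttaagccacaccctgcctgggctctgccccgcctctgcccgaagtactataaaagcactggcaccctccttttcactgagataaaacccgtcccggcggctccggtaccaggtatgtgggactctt
Irf4: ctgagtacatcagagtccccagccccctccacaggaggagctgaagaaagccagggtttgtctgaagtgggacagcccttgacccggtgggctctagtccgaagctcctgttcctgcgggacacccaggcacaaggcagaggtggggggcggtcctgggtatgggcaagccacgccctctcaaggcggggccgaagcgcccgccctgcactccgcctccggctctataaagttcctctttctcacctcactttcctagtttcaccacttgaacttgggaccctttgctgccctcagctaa
Irf8: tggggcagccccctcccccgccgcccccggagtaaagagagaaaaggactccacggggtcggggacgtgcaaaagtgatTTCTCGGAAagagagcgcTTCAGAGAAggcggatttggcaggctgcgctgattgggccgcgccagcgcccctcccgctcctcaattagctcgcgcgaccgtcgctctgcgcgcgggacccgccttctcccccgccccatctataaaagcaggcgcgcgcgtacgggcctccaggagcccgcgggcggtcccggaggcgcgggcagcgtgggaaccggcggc
Irf1: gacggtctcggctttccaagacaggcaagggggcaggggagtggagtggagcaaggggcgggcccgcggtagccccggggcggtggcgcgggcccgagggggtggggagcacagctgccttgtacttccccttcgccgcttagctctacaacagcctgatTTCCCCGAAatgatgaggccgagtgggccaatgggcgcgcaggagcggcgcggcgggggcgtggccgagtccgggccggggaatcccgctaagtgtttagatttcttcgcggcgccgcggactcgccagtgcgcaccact
Irf2: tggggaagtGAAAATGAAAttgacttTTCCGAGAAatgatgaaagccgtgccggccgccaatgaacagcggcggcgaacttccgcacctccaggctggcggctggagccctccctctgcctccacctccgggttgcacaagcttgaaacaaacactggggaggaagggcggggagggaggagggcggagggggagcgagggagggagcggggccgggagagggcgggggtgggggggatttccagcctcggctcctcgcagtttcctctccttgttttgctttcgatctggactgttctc
The windows lie at chr7:141266375-141266674 on the minus strand for Irf7 and, on the plus strand, at chr13:30748983-30749282 for Irf4, chr8:120736108-120736407 for Irf8, chr11:53769764-53770063 for Irf1 and chr8:46739495-46739794 for Irf2. The Irf1 window held TTCCCCGAA, starting 90 bases upstream of the start. The Irf8 window held TTCTCGGAA at 171 and TTCAGAGAA at 153 bases upstream. The Irf2 window held GAAAATGAAA at 241 and TTCCGAGAA at 224 bases upstream, and the motifs did not overlap each other. TTCNNNGAA was thus present for 3 of 8 members, against 9.55% of 27025 genes and 8.30% of 32851 windows of the same length. The response element core was present for 1 of 8, against 3.99% of genes and 3.44% of windows. The windows of Irf3, Irf4, Irf5, Irf7 and Irf9 held neither string of letters, which says nothing about sites outside these windows or about sites that depart from them.

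Transcripts of 5 of the 8 members were lower in female-labelled libraries, and the other 3 did not pass the test. Irf7, the interferon-induced amplifier of the family, was 2.23-fold lower and Irf4, a lymphoid and dendritic cell factor, 1.73-fold lower. Irf9, the DNA-binding subunit of ISGF3, Irf8 and Irf5 were 1.24-fold, 1.23-fold and 1.145-fold lower, while Irf1, Irf2 and Irf3 did not pass. Across all 11903 genes tested, 13.9% were called at an adjusted p under 0.05 by edgeR's quasi-likelihood test, 6.62% lower and 7.29% higher in the libraries labelled female. The median log2 fold change (labelled female minus labelled male) was -0.25 over the 8 members and 0.00 over all genes tested. In 5 of 8 members the groups did not overlap, against 30.9% of all genes. In such bulk samples, fewer cells of a type and less RNA per cell cannot be told apart.

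**Figure D1:**
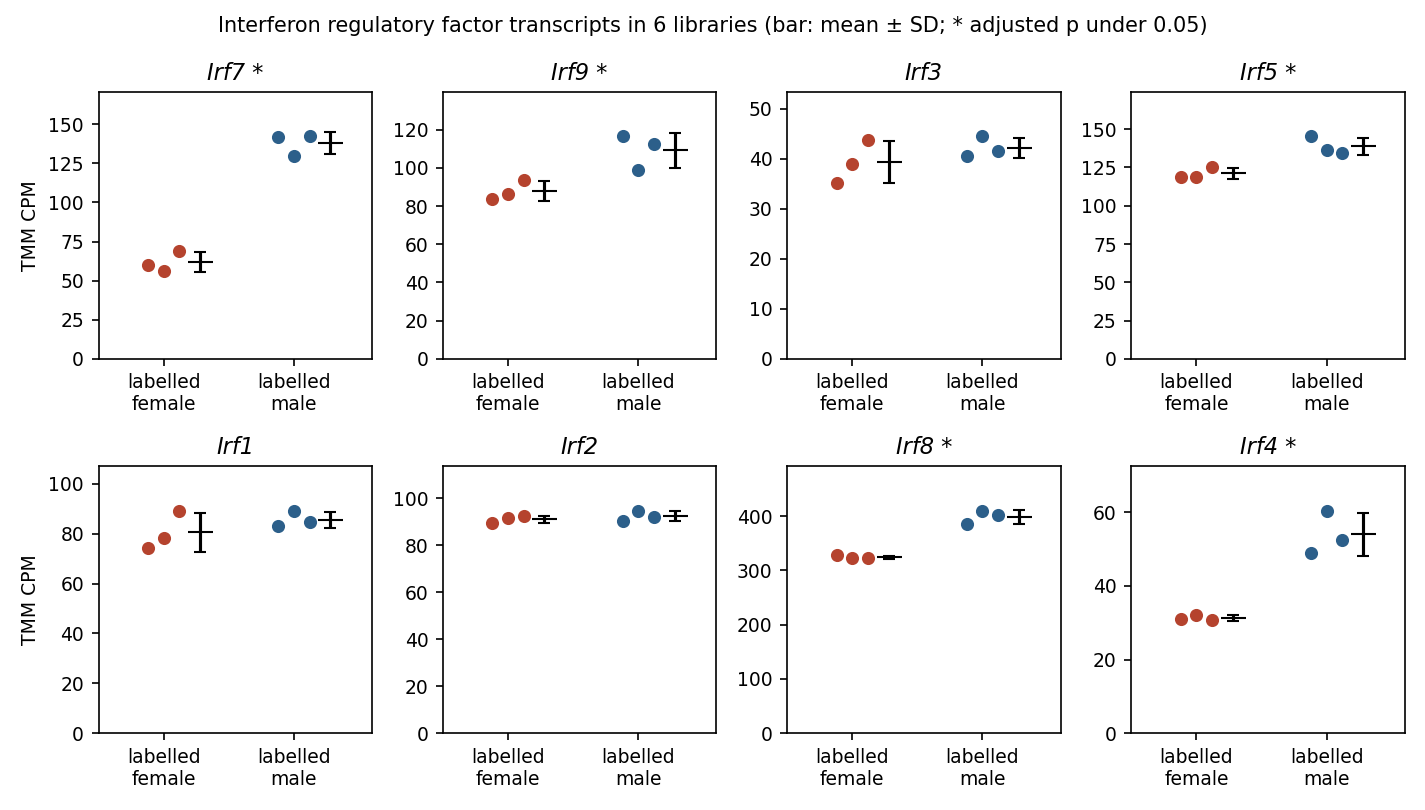
TMM-normalized CPM of each member in the 3 libraries labelled female (left) and the 3 labelled male (right), 1 point per library with mean ± SD; each axis starts at 0. The groups do not overlap for Irf7, Irf9, Irf5, Irf8 and Irf4 and overlap for Irf3, Irf1 and Irf2.

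Of the factors that switch on interferon genes, Irf7 was lower in female-labelled libraries and Irf3 did not pass. Irf7 (ENSMUSG00000025498, chromosome 7) had 60.1, 56.25 and 68.89 CPM in the libraries labelled female, against 141.6, 129.6 and 142.1 CPM in libraries labelled male. Every library labelled female lay below every library labelled male, and the gap was several times the spread within either group. The log2 fold change was -1.16 (SE 0.07, adjusted p = 1.16e-09 by edgeR), the 8th smallest p among all genes tested. Irf3 (ENSMUSG00000003184, chromosome 7), whose protein is present before stimulation and is activated by phosphorylation, had 35.23, 38.96 and 43.74 CPM in libraries labelled female and 40.55, 44.43 and 41.52 CPM in libraries labelled male. These ranges overlap, with female replicate 1 lowest of all 6. The Irf3 ratio of labelled female to labelled male was 0.933, with a 95% interval of 0.826 to 1.05 (adjusted p = 0.478), so a fall as large as that of Irf7 lies outside the interval.

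Within each library, the log2 ratio of Irf7 to Irf3 CPM was 0.770, 0.530 and 0.655 in libraries labelled female and 1.80, 1.545 and 1.775 in libraries labelled male. The mean difference was -1.06 on the log2 scale, given as a description without a test. Gene length cancels in this difference.

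Irf9 and its partners formed the next group. Irf9 (ENSMUSG00000002325, chromosome 14) had 83.64, 86.54 and 93.73 CPM in the libraries labelled female, against 116.4, 98.78 and 112.5 CPM in libraries labelled male. The groups did not overlap, but male replicate 2 stood nearer to female replicate 3 than to the other libraries labelled male. The log2 fold change was -0.31 (SE 0.07, adjusted p = 0.00474). Without male replicate 1 it was -0.26 with adjusted p = 0.051, just outside the threshold.

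Stat2, the partner that gives ISGF3 its transactivation domain, had 63.4 ± 4.05 CPM in libraries labelled female and 114 ± 5.20 CPM in libraries labelled male (SD, n = 3 each). It was lower (log2 fold change -0.85, SE 0.07, adjusted p = 2.51e-08 by edgeR). Of the 6 genes of the list of ISGF3 STATs, receptor chains and their kinases, 2 were lower, Stat2 and Tyk2, and 1 was higher, Jak1. Among all genes tested, 6.62% were lower and 7.29% higher. The receptor chains Ifnar1 and Ifnar2 had log2 fold changes of -0.08 and -0.06 and did not pass. Tyk2 did not pass without female replicate 2 or any 1 library labelled male, and Jak1 did not pass without male replicate 1, so Stat2 was the member of this list called in every fit that left out 1 library.

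Genes that ISGF3, IRF3 and IRF7 are known to drive were lower nearly throughout. Of 28 listed and tested genes, 27 were lower in female-labelled libraries and the other, the chemokine gene Ccl5, did not pass. That is 96.4% of the list against 6.62% of all genes tested, and the list's median log2 fold change was -0.80. The list had been drawn up with earlier results of these data known, so its direction is no independent evidence. Ifit3, which restricts viral RNA, had 9.30 ± 1.00 CPM in libraries labelled female and 33.7 ± 3.85 CPM in libraries labelled male, a 3.62-fold difference. Oasl1, an oligoadenylate synthetase-like protein that limits translation of Irf7 in mice, had 6.69 ± 0.0385 and 22.9 ± 2.38 CPM in libraries labelled female and male. Isg15, a ubiquitin-like modifier, was 3.03-fold lower and Ifi44 3.09-fold lower in libraries labelled female. The value of Ifit3 is uncertain because the sources do not say how reads shared with its close paralog Ifit3b were counted. The summed CPM of the 28 genes was 987, 960 and 1006 in libraries labelled female, against 1606, 1624 and 1697 in libraries labelled male.

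The listed type I and type III interferon transcripts were at or near zero, and interferon genes outside the list were not examined. Of 9 ligand genes, 7 had no count in any library, among them Ifnb1 and Ifna4, and a count of 0 allows up to 0.144 to 0.175 CPM depending on the library (3 counts of its total, covering counting error only). Ifng, the type II ligand and the one gene of the list abundant enough to test, had 2.93 ± 0.823 CPM in libraries labelled female and 4.57 ± 2.15 CPM in libraries labelled male (adjusted p = 0.156 by edgeR). With no filter on low counts, 15932 genes were tested and 1 gene of this list was called lower. Besides Ifng, only Ifna1 had any count, at 0.0504 CPM in female replicate 2 and 0.238 CPM in male replicate 3. Which gene was called, and the share of all genes called lower in that fit, are not reported here.

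**Figure D2:**
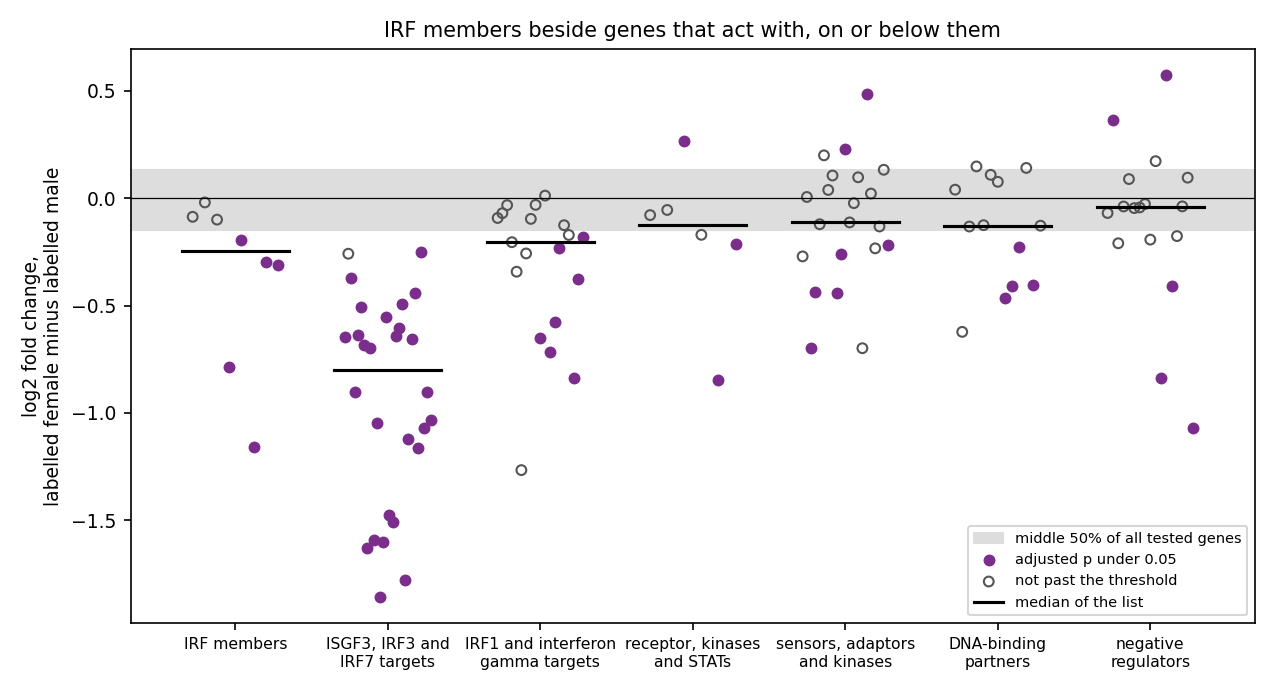
Log2 fold change (labelled female minus labelled male) of each tested gene in the 8 IRF members and in 6 lists of genes that act with, upstream or downstream of them; filled points passed an adjusted p of 0.05 and black bars are list medians. The target list of ISGF3, IRF3 and IRF7 has its median at -0.80, below the grey band that holds the middle 50% of all genes tested.

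Irf1 and Irf2, the activator and its antagonist, did not pass the test, and their intervals allow small differences only. Irf1 (ENSMUSG00000018899, chromosome 11) had 74.22, 78.12 and 89.22 CPM in the libraries labelled female and 82.92, 88.97 and 84.82 CPM in libraries labelled male. Female replicate 3 was the highest of all 6, so the groups overlap. The ratio was 0.941, with a 95% interval of 0.850 to 1.04 (adjusted p = 0.459 by edgeR). The result depended on female replicate 3: without it, Irf1 was lower, with a log2 fold change of -0.17 and adjusted p = 0.0463. Irf2 (ENSMUSG00000031627, chromosome 8) had 89.3, 91.63 and 92.3 CPM in libraries labelled female and 90.43, 94.68 and 92.03 CPM in libraries labelled male. Its spread was small, with an SD of 1.73% of the mean in libraries labelled female and 2.32% in the male-labelled ones, and the groups overlap. Its ratio was 0.986 (95% interval 0.904 to 1.075). The log2 ratio of Irf1 to Irf2 within a library averaged -0.18 ± 0.12 in libraries labelled female and -0.11 ± 0.02 in libraries labelled male, a difference smaller than the spread in the female-labelled group.

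Of 19 tested genes of a list tied to IRF1 and interferon gamma, 7 were lower in female-labelled libraries (36.8%, against 6.62% of all genes). The other 12 did not pass, and the list's median log2 fold change was -0.21. The count of lower genes was 4 without male replicate 1. That fit called 522 of 12056 genes lower, against 788 of 11903 with all 6 libraries. Irgm1 and Ifi47, interferon-inducible GTPases, had log2 fold changes of -0.71 and -0.65, and Nlrc5, the transactivator of MHC class I genes, -0.58. Tap1, the peptide transporter whose promoter is a known IRF1 target, had 111 ± 4.08 and 144 ± 2.56 CPM in libraries labelled female and male (log2 fold change -0.38). Of the immunoproteasome genes, Psmb10 was lower (log2 fold change -0.23, adjusted p = 0.0347 by edgeR), a call lost without any 1 library other than female replicate 3. Psmb8 and Psmb9 had log2 fold changes of -0.13 and -0.17 and did not pass, nor did Gbp2 (-0.26), a guanylate-binding protein.

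Irf5 (ENSMUSG00000029771, chromosome 6) had 119.0, 119.0 and 125.4 CPM in the libraries labelled female, against 145.2, 136.4 and 134.4 CPM in libraries labelled male. The groups did not overlap, with female replicate 3 and male replicate 3 the closest pair across them. The log2 fold change was -0.20 (SE 0.06, adjusted p = 0.0334 by edgeR). This call did not survive the loss of any 1 library other than female replicate 3: adjusted p was 0.0935 and 0.118 without female replicates 1 and 2, and 0.176, 0.0897 and 0.0785 without male replicates 1, 2 and 3. Irf5 shares 411 of its 2905 exon bases, or 14.1%, with Tnpo3, a nuclear import receptor gene on the opposite strand. No strand-marking step is named in the protocol, so whether reads of that stretch were told apart, or counted at all, is not known. Tnpo3 itself had a log2 fold change of 0.01 (adjusted p = 0.963).

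Of 7 tested cytokine genes tied to IRF5, 3 were lower in female-labelled libraries, against 6.62% of all genes tested. Tnf had 96.4 ± 10.3 and 194 ± 21.7 CPM in libraries labelled female and male (log2 fold change -1.005, adjusted p = 3.25e-08 by edgeR), and Cxcl10, a chemokine that ISGF3 also drives, 4.22 ± 0.244 and 7.89 ± 1.503 CPM. The third, Ccl4, did not pass without female replicate 1 or 2 or male replicate 1 or 3. Il6 (log2 fold change -0.28, adjusted p = 0.156) and Il12a (0.00) did not pass.

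Irf8 and Irf4 are close paralogs that bind DNA together with PU.1 or AP-1 proteins. Irf8 (ENSMUSG00000041515, chromosome 8) had 328.0, 323.3 and 322.6 CPM in the libraries labelled female, against 385.4, 410.2 and 402.0 CPM in libraries labelled male. The SD of the libraries labelled female was 0.904% of their mean, and all of them lay below libraries labelled male. The log2 fold change was -0.30 (SE 0.05, adjusted p = 0.000818 by edgeR). Irf4 (ENSMUSG00000021356, chromosome 13) had 31.0, 32.06 and 30.7 CPM in libraries labelled female, against 49.03, 60.4 and 52.48 CPM in libraries labelled male. The groups were well apart, with male replicate 2 the highest. The log2 fold change was -0.79 (SE 0.08, adjusted p = 1.10e-06).

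The balance of these paralogs can be read within each library. The log2 ratio of Irf8 to Irf4 CPM was 3.403, 3.334 and 3.394 in libraries labelled female and 2.975, 2.764 and 2.937 in libraries labelled male. The groups did not overlap in this ratio and differed by 0.49 on the log2 scale, as a description without a test.

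Lymphocytes and dendritic cells hold more Irf4 than neutrophils do, and plasmacytoid dendritic cells hold much Irf7 and Irf8, so markers of those cells were read beside these members. Of 13 tested B cell markers, 8 were lower in female-labelled libraries (61.5%, against 6.62% of all genes) and 5 did not pass. The summed level of the 13 was 192.5, 264.7 and 245.9 CPM in female-labelled libraries, against 313.1, 383.3 and 347.0 CPM in libraries labelled male. Ms4a1, which encodes CD20, had 22.6 ± 2.11 CPM in libraries labelled female and 38.95 ± 6.05 CPM in libraries labelled male. Cd22, an inhibitory receptor of B cells, was 1.74-fold lower. Male replicate 2 was highest both in Irf4 and in the B cell sum. Irf4 ran only from 30.7 to 32.06 CPM in the libraries labelled female, too narrow a range to order them, and a link between Irf4 and the B cell sum was not tested.

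Of 10 plasmacytoid dendritic cell markers, 9 were lower in female-labelled libraries (90.0%, against 6.62% of all genes). The sum of the 10 was 461, 463.6 and 491.8 CPM in female-labelled libraries, against 659.7, 654.6 and 669.9 CPM in libraries labelled male. Siglech, a defining surface lectin of these cells, had 91.8 ± 5.90 and 142 ± 5.93 CPM in libraries labelled female and male (log2 fold change -0.63, adjusted p = 7.80e-07 by edgeR). The kallikrein gene Klk1 (log2 fold change -0.91) and the homing receptor Ccr9 (-0.67) were lower too. Bst2 stands in this list and is also an interferon-stimulated gene.

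Of 12 tested conventional dendritic cell markers, 4 were lower (33.3%, against 6.62% of all genes), including Clec9a (log2 fold change -0.76) and the migration receptor Ccr7 (-1.04). Of the same 12, 1 was higher (all genes 7.29%), Naaa, a call lost without male replicate 2 or 3. The sum of this list ran from 438.9 to 439.5 CPM in libraries labelled female and from 470.5 to 489.2 CPM in libraries labelled male. No marker of these 3 lists was at 0 in all libraries, and none of the 3 sums overlapped between groups (p = 0.1 for each in an exact two-sided permutation test, again the lowest possible). The part of these cells in the differences of Irf4, Irf8 and Irf7 was not tested.

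Markers of 5 further cell classes were also read. The 16 monocyte and macrophage markers summed to between 2538 and 2571 CPM in libraries labelled female and between 2302 and 2384 CPM in libraries labelled male. Among them 2 were higher (all genes 7.29%) and 1 was lower (6.25%, close to the 6.62% of all genes). Without female replicate 3, 4 were higher. That fit called 1439 of 12078 genes higher, against 868 of 11903 with all 6 libraries. The chemokine receptor Ccr2 was higher (log2 fold change 0.52), as was Adgre1, which encodes F4/80, whose call was lost without any 1 library other than female replicate 3 or male replicate 1, and Fcgr1, a receptor gene that interferons induce, was lower (-0.70), while Csf1r had a log2 fold change of -0.02 and did not pass. The neutrophil markers summed to 68250, 64030 and 82520 CPM in libraries labelled female and 62070, 56990 and 63050 CPM in libraries labelled male. Of these 13 markers 10 were higher (6 without male replicate 2), against 7.29% of all genes, led by Retnlg (1.25). The fit without male replicate 2 called 486 of 12045 genes higher. For T and NK cells, 1 of 13 tested markers was lower, close to the 6.62% of all genes called lower. It was Cd4 (log2 fold change -0.55, adjusted p = 0.0112 by edgeR), which did not pass when male replicate 2 was left out (adjusted p = 0.0816). Of 4 plasma cell markers tested, the most abundant was Xbp1, which had a log2 fold change of -0.02 and did not pass, nor did the other 3, although 1 of the 4 was higher without female replicate 1. Of 7 stromal and endothelial markers tested, Acta2 was higher (log2 fold change 0.77) and Igfbp5 was lower (-1.07), against 7.29% and 6.62% of all genes. In this list 2 were lower without female replicate 2, female replicate 3 or male replicate 1 and with no filter on low counts. Over all genes, 521, 1269 and 522 were lower without female replicate 2, female replicate 3 and male replicate 1. Neither Acta2 nor Igfbp5 was abundant enough to be tested at 10 CPM in 3 libraries. The list summed to between 64.8 and 75.8 CPM in libraries labelled female and between 79.9 and 87.4 CPM in libraries labelled male, so this sum too was lower in the female-labelled libraries without overlap (p = 0.1 in the exact two-sided permutation test).

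**Figure D3:**
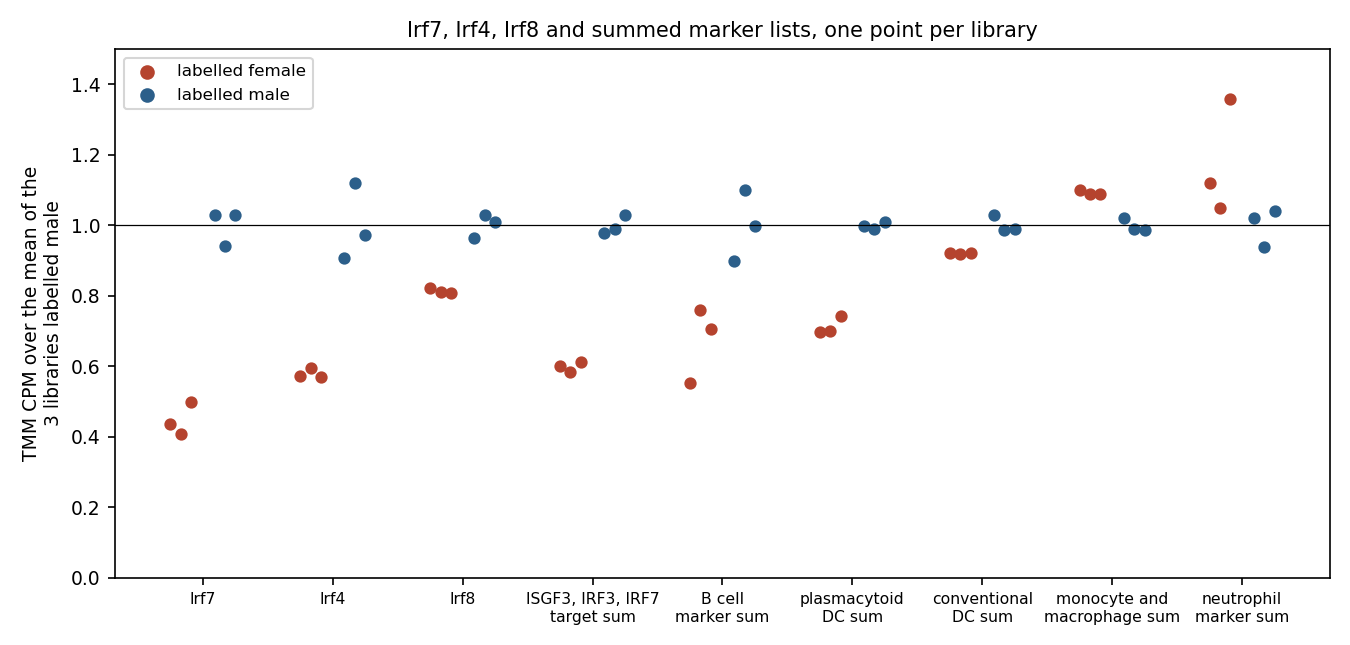
CPM of Irf7, Irf4 and Irf8 and summed CPM of the marker and target lists in each library, divided by the mean of the 3 libraries labelled male. Libraries labelled female lie at 0.408 to 0.500 for Irf7, 0.569 to 0.594 for Irf4, 0.808 to 0.822 for Irf8, 0.553 to 0.761 for the B cell sum and 0.697 to 0.744 for the plasmacytoid dendritic cell (DC) sum, and above 1 for the monocyte and neutrophil sums.

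Partners of IRF4 and IRF8 at composite DNA sites were mostly not called. Of 13 tested partner genes, 4 were lower (30.8%, against 6.62% of all genes), 0 were higher (all genes 7.29%) and 9 did not pass. Without female replicate 3, 1 was higher, in a fit that called 1439 of 12078 genes higher. The list's median log2 fold change was -0.13. Ikzf3 and Spib, factors of lymphoid and plasmacytoid dendritic cells, had log2 fold changes of -0.46 and -0.41, and Jun, an AP-1 subunit, had 1361 ± 42.5 and 1805 ± 28.9 CPM in libraries labelled female and male (-0.41). Junb (-0.23) did not pass without female replicate 1 or 2 or male replicate 1 or 3. Spi1, which encodes PU.1, had 303 ± 35.4 and 275 ± 5.96 CPM in libraries labelled female and male and did not pass (log2 fold change 0.14, adjusted p = 0.197 by edgeR). Cebpa (-0.13), the granulocyte factor that IRF8 opposes in progenitors, did not pass either.

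Genes linked to IRF8 and IRF4 had members on both sides, with 4 lower and 2 higher of 16 tested. Among all genes tested, 6.62% were lower and 7.29% higher. Klf4, a monocyte factor downstream of IRF8, had 423 ± 13.9 and 597 ± 7.75 CPM in libraries labelled female and male (log2 fold change -0.50, adjusted p = 2.10e-06 by edgeR). Cd68 was lower (-0.28). Il1b was higher, with 141 ± 11.9 and 70.75 ± 3.24 CPM in libraries labelled female and male (log2 fold change 0.99). Of the others called, Cst3, Ccl4 and Bcl2l1 each lost the call when some single library was left out. The count of lower genes in this list was 2 without female replicate 1 or 2 or male replicate 1 or 3, and that of higher genes was 1 without any 1 library labelled male and 4 without female replicate 3.

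Upstream of the family, sensors, adaptors and kinases were mostly not called. Of 21 genes, 5 were lower (23.8%, against 6.62% of all genes), 2 were higher (all genes 7.29%) and 14 did not pass. The list's median log2 fold change was -0.11. Ifih1 and Rigi, the cytosolic RNA sensors MDA5 and RIG-I, had log2 fold changes of -0.70 and -0.44, and both are themselves interferon-stimulated. Ikbke, the inducible kinase of IRF3 and IRF7, had 60.15 ± 1.48 and 81.4 ± 1.14 CPM in libraries labelled female and male (log2 fold change -0.44, adjusted p = 5.42e-05 by edgeR), whereas its constitutive relative Tbk1 had 79.1 ± 7.60 and 80.4 ± 4.33 CPM and did not pass (-0.02). Tlr4 was higher (0.49). Mavs (0.04) and Myd88 (0.10), the adaptors of RNA sensors and Toll-like receptors, did not pass, nor did Tlr7 (0.02) and Tlr9 (-0.23). The count of lower genes was 3 without female replicate 1 or male replicate 1 or 3, and that of higher genes was 1 without female replicate 2 or male replicate 2 or 3, where Sting1 lost its call. Over all genes, 522 and 467 were lower without male replicates 1 and 3, and 486 and 439 higher without male replicates 2 and 3.

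Negative regulators also split. Of 17 tested, 3 were lower (17.6%, against 6.62% of all genes), 2 higher (all genes 7.29%) and 12 did not pass. Without male replicate 1, 2 were lower, in a fit that called 522 of 12056 genes lower. Usp18, which blocks the interferon receptor, had 10.9 ± 1.14 and 22.9 ± 1.98 CPM in libraries labelled female and male (log2 fold change -1.07), and Tnfaip3, the inhibitor A20, was lower too (-0.41). Socs1 was lower (-0.84) but had adjusted p = 0.0751 by edgeR when male replicate 1 was left out, while Socs3, an inhibitor of cytokine receptors with STAT3, was higher (0.57). Foxo3, a repressor of Irf7 transcription, had 74.96 ± 4.67 and 58.2 ± 3.18 CPM in libraries labelled female and male (log2 fold change 0.36, adjusted p = 0.00117 by edgeR). The IRF2-binding corepressors Irf2bp1 (-0.21), Irf2bp2 (-0.04) and Irf2bpl (0.09) did not pass.

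**Figure D4:**
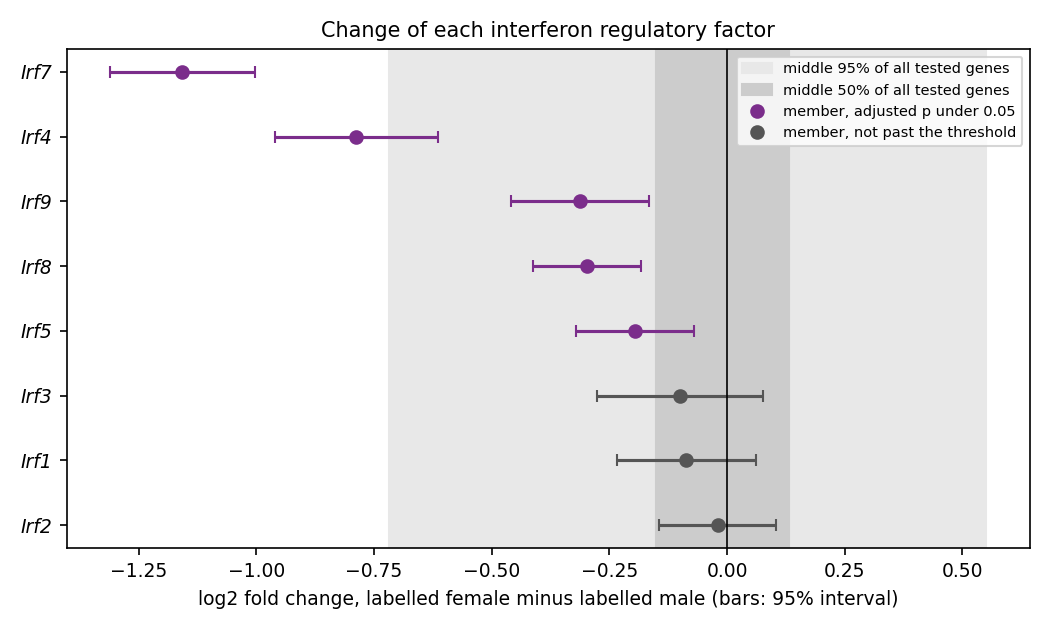
Log2 fold change of each member (labelled female minus labelled male) with its 95% interval, over bands that hold the middle 95% and 50% of all genes tested. Irf7 at -1.16 and Irf4 at -0.79 lie outside the wider band, whose lower edge is -0.72, and the intervals of Irf3, Irf1 and Irf2 include 0.

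Levels of different members were compared per kilobase of exon (TMM CPM divided by the length of the union of annotated exons). Irf8 stood highest, with 46.0 ± 0.416 and 56.6 ± 1.79 per kilobase in libraries labelled female and male, and Irf5 next, with 41.7 ± 1.27 and 47.7 ± 1.97. Over all 6 libraries the ranges of these neighbours overlapped, and both lay above at least 91.97% of the genes tested. Irf4 was the lowest member, with 6.37 ± 0.145 and 11.0 ± 1.19 per kilobase in libraries labelled female and male, and its range overlapped that of Irf3.

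Irf7 changed its place in this order. It was the 4th member in libraries labelled female, at 16.4 ± 1.72 per kilobase and below Irf1 (20.25 ± 1.96), though its range there overlapped that of Irf9 (16.3 ± 0.965). It was the 3rd in libraries labelled male, at 36.5 ± 1.87 and above Irf1 (21.5 ± 0.779). Its share of the summed level of the 8 members was 9.58% in libraries labelled female and 16.7% in libraries labelled male, and that of Irf4 was 3.73% and 5.04%. Irf9 had 16.3 ± 0.965 and 20.3 ± 1.72 per kilobase in libraries labelled female and male. Irf2 (12.3 ± 0.213 and 12.5 ± 0.290) and Irf3 (11.4 ± 1.24 and 12.25 ± 0.586) followed, and their ranges overlapped each other.

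**Figure D5:**
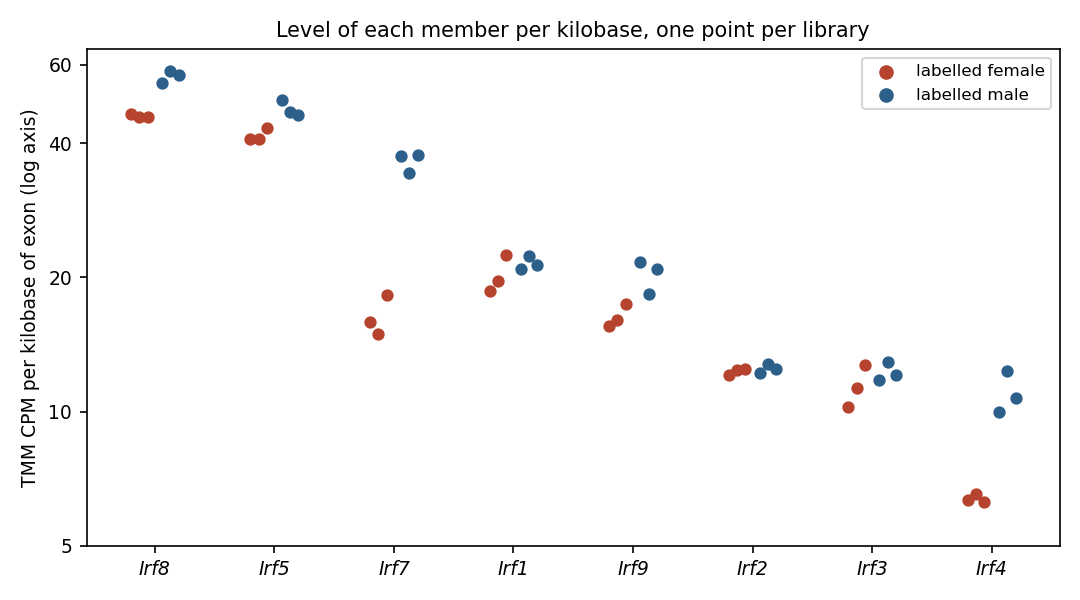
TMM CPM per kilobase of exon of each member (log axis), 1 point per library, ordered by the mean over 6 libraries; libraries labelled female are on the left of each member. Irf8 and Irf5 lie above 40 in every library, and Irf7 spans 14.9 to 37.6 because its 2 groups are apart.

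The genes whose profile over the 6 libraries was most like that of a called member were found by the root mean square difference of mean-centred log2 CPM. This distance includes the difference between groups, so it favours genes with a log2 fold change like the member's, and shared regulation was not tested. For Irf7 they were Usp18, Ifi205 and Oasl2, at 0.0889, 0.0924 and 0.0949 log2 units. Their log2 fold changes were -1.07, -1.08 and -1.12, and reads of Ifi205 may be shared with close paralogs. For Irf4 they included Rasgef1b at 0.0594 and Rpgrip1 at 0.0768, and for Irf8 Gigyf1, Git1 and Sp100 at 0.00996 to 0.0216. For Irf9 they included Lyl1 at 0.0361 and Tnip2 at 0.0394. For Irf5 they were Mta1, Zfpl1 and Incenp, at 0.0170 to 0.0207, of which Mta1 and Zfpl1 did not pass the test between groups (adjusted p = 0.0735 and 0.288 by edgeR).

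Other members share short stretches of exon with neighbours on the GENCODE annotation. Irf1 shares 135 bases, 3.40% of its exon length, with Gm17334 on the opposite strand, which is not analysed here. Irf7 shares 45 bases with Phrf1 on the opposite strand, 1.19% of its exon length, and Phrf1 was lower (log2 fold change -0.25, adjusted p = 0.0169 by edgeR), a call lost without female replicate 2 or male replicate 2 or 3. Irf9 shares 123 bases with Rnf31 on the same strand and Irf3 88 bases with Bcl2l12 on the opposite strand, and neither neighbour passed (log2 fold change -0.20 and -0.03).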

How the data were processed

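Counts per gene were deposited by the authors, 1 raw count table per library with no normalization. The submitters' processing notes name cutadapt 1.15, HISAT2 2.0.5 and GRCm39. No source used here names the counting tool or says how strand and shared reads were treated. Per the labels' protocols, poly-A RNA was fragmented and reverse transcribed with random primers. Symbols and exon lengths came from GENCODE M21 (GRCm38), which named 21898 of 21955 identifiers. No 2 libraries of a group were copies (chi-square per degree of freedom 4.19 to 17.4).

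Counts were fitted over all genes with edgeR 4.0.16 in R 4.3.3 (TMM, the filterByExpr function at a minimum count of 10, the quasi-likelihood test and Benjamini-Hochberg adjustment over 11903 genes, threshold 0.05), with the label group as the term. Log2 fold changes are labelled female minus labelled male. SEs are the change divided by the root of its F statistic. Intervals are 95% and use the moderated degrees of freedom. Member libraries held 586 to 7192 counts per gene.

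On simulated counts the fit recovered 70.7% of 99 genes changed 1.5-fold and 86.9% of 99 changed 2-fold. It called 0.0602% of the unchanged genes in a set of 11819. These counts were drawn from the fit's own means and dispersions, with far fewer genes changed than the 13.9% called in the data. They therefore check the code and do not measure the error rate of the calls. Changes below 1.5-fold, such as those of Irf5, Irf8 and Irf9, were not simulated.

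Of 257 list entries 252 matched a row, and Cxcr2, Clec4d, Ighm, Ighd and Trac are not analysed here. Members and lists were chosen with earlier results of these data known. Named list genes are those called with the largest changes (up to 4 per direction), the most abundant marker of each cell type, and the 3 nearest profiles of each called member. Other genes, named to illustrate a list, were picked with their values in view, and a few genes that the rule names are not reported here. Alternatives were RLE and upper-quartile factors, DESeq2 1.42.0, limma-voom 3.58.1, other filters, the replicate number as a block, gene sets left out of library sizes, and each library left out.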

Additional observations from a re-analysis of the deposited data

How the results depend on the processing

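The calls of Irf7, Irf4 and Irf8 held in each of 15 alternatives, with log2 fold changes of -1.24 to -1.09, -0.85 to -0.70 and -0.32 to -0.28. With all 6 libraries, the 5 lower calls also held under each other scaling, filter, test and library-size alternative. Leaving out 1 library at a time, Irf5 ran from -0.22 to -0.16 and lost its call without each library but female replicate 3. Irf9 ran from -0.38 to -0.26 (call lost without male replicate 1), and Irf1 from -0.1667 to -0.03105 (call gained without female replicate 3). The number of members called lower ran from 3 (without male replicate 1) to 6 (without female replicate 3). Over all genes, the number called higher ran from 439 to 1439 and the number called lower from 467 to 1269. List counts given above without 1 library stand beside these changed totals. Such fits use fewer libraries, and the cause of the larger counts without female replicate 3 was not tested.

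The labels share replicate numbers between groups without saying what they mark, and same-numbered libraries did not deviate together (correlations of deviations -0.0386, 0.0646 and 0.0634), so the block is an alternative. With the replicate block, 1007 genes were higher and 914 lower, and the same 5 members were called. Of list counts, 43 of 482 moved by more than 1.5 times, and 65 of 896 fits of a called list gene lost the call. Sting1 lost its call with upper-quartile factors, DESeq2, the filter of 10 CPM in 3 libraries and without mitochondrially encoded genes. The planned comparison of protein sequences was not run. The lowest count of any member in a library was 586, and the effect of depth on the members' calls was not tested.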
